A study of Mus musculus with 26 samples.

Results

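The mammary tumors described here came from MMTV-PyMT mice on the C57BL/6 strain, in which the mouse mammary tumor virus promoter drives the polyoma middle T oncogene in mammary epithelium. Mice were injected under the skin for several weeks with 125 mg/kg of oligonucleotide per week. The 4 tumors labelled Tumor ASO2 received Malat1 ASO2, an antisense oligonucleotide against the long noncoding RNA Malat1, and the 3 tumors labelled Tumor scASO received the control oligonucleotide scASO. The members were chosen by these sample titles, and they are 7 of the 26 samples of the series. The other 19 are 3 tumors of mice given a different Malat1 oligonucleotide, ASO1, and 16 organoid cultures of MMTV-PyMT tumor cells. All 10 tumors carry the PyMT transgene and all received an oligonucleotide, so no group is free of either. The labels name a number for each tumor, but not whether each came from its own mouse, nor the mice's age, so p-values measure the spread between these tumors only.

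Malat1 is an abundant, nuclear-retained long noncoding RNA that lies in or near nuclear speckles, the bodies where splicing factors are stored, and it is transcribed next to Neat1, the RNA that builds paraspeckles. Antisense oligonucleotides of the type given to animals pair with an RNA in the nucleus and lead RNase H to cut it. The PyMT oncoprotein drives luminal tumors that grow inside the mammary fat pad, beside adipocytes, fibroblasts, vessels and body-wall muscle. Mammary luminal cells can also switch on milk protein genes, which in lactation are driven by prolactin through STAT5.

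Polyadenylated RNA was sequenced from homogenized tumor tissue, so a level is a mean over the cells of a tumor, and fewer cells of a type cannot be told apart from less RNA per cell. ASO2 tumors 1 to 4 had 28256266, 31243557, 24496619 and 9939520 reads in genes, and scASO tumors 1 to 3 had 35839773, 33773193 and 22430099. ASO2 tumor 4 was therefore the shallowest of the 10 tumor libraries. ASO2 tumor 1 stood apart from the rest: it lay at 56.2 on the first principal component, which held 32.9% of the variance (500 genes with the highest variance), whereas the other 9 tumors lay between -28.6 and 22.2. Alignments that were not unique came to 44.0% of the number of reads in genes in ASO2 tumor 1, against 24.1% to 32% in the other tumors. Its skeletal muscle and adipocyte transcripts were the highest of all tumors, as described below, and counts, medians and leading estimates are therefore given also without that tumor. The label of a mammary epithelial tumor was checked with 20 luminal epithelial markers. They summed to 7689, 5921, 8080 and 8714 CPM, the reads of a gene per 1000000 reads in genes after TMM scaling, in the ASO2 tumors, against 8430, 7167 and 7670 CPM in the scASO tumors. The groups overlapped, and the median log2 fold change of the 20 genes was 0.00. Cdh1, the E-cadherin of epithelial junctions, was at 630, 600, 488 and 708 CPM in ASO2 tumors, against 789, 729 and 630 CPM in scASO tumors.

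Malat1 itself was lower in the ASO2 tumors, but the groups overlapped. Malat1 (ENSMUSG00000092341) is a lincRNA gene on the minus strand of chromosome 19, bases 5795690 to 5802672 in GRCm38. It was at 694, 1035, 730 and 428 CPM in ASO2 tumors 1 to 4, against 1799, 2176 and 945 CPM in scASO tumors 1 to 3. The ASO2 mean was 722 ± 249 CPM (SD, n = 4) and the scASO mean 1640 ± 631 CPM (SD, n = 3). ASO2 tumor 2, the highest of its group, lay above scASO tumor 3, the lowest control. On the log2 scale the mean of the ASO2 tumors was lower by 1.17, that is 44.5% of the scASO level, with a two-sided exact permutation p of 0.0857 over 35 splits, where the smallest possible p was 0.0286. In edgeR the log2 fold change was -1.18 ± 0.37 (SE), and its adjusted p over all genes was 0.886. The log2 difference was -1.17 also without ASO2 tumor 1, where the exact p was 0.2 and could not be under 0.1. ASO1 tumors had 945, 885 and 466 CPM of Malat1, and the ASO2 to ASO1 log2 fold change was -0.08 ± 0.37.

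The genes beside Malat1 differed in direction. Neat1, on the same strand at bases 5824708 to 5845478, was at 3724, 1408, 1183 and 3096 CPM in ASO2 tumors, against 2428, 951 and 1626 CPM in scASO tumors, a log2 fold change of 0.50 ± 0.46. The Neat1 groups overlapped, and the estimate was 0.20 ± 0.45 without ASO2 tumor 1. Of the 18 genes listed around Malat1 and Neat1, both included, 17 were tested, with 5 estimates above 0 and 12 below, and a median log2 fold change of -0.14. Over all tested genes the median was 0.04. Tigd3, a gene related to a transposase, was at 1.80, 0.872, 1.52 and 1.16 CPM in ASO2 tumors and 0.762, 0.653 and 0.733 CPM in scASO tumors, without overlap. Capn1, the calcium-dependent protease calpain 1, was at 84.2, 90.1, 59.5 and 68.9 CPM in ASO2 tumors and 101, 92.2 and 91.3 CPM in scASO tumors, also without overlap. Their log2 fold changes were 0.90 ± 0.39 and -0.33 ± 0.16, with adjusted p-values of 0.886 for both in edgeR's quasi-likelihood test.

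**Figure D1:**
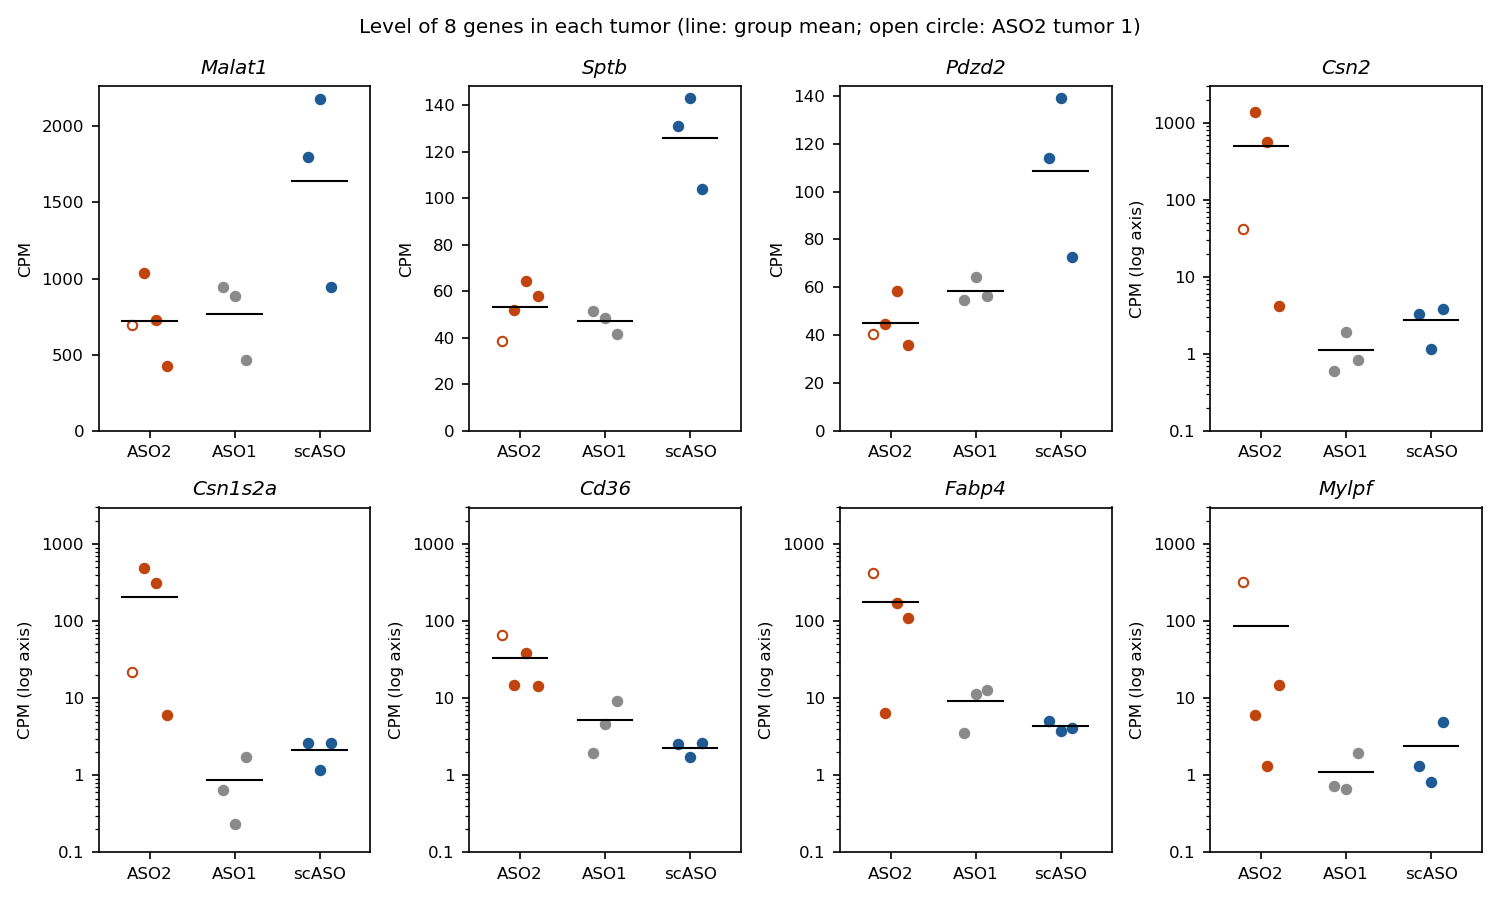
Level of 8 genes in each tumor, in CPM, with ASO2, ASO1 and scASO tumors from left to right; each circle is a tumor, the open circle is ASO2 tumor 1 and the line is the group mean. The vertical axis starts at 0 for Malat1, Sptb and Pdzd2 and is logarithmic for the other genes. Sptb and Pdzd2 were lower in all 4 ASO2 tumors than in all 3 scASO tumors, Csn2 and Csn1s2a were highest in ASO2 tumors 2 and 3, and Mylpf was at 327 CPM in ASO2 tumor 1 alone.

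Across the transcriptome, no gene passed the test between ASO2 and scASO tumors. With Benjamini-Hochberg adjustment over 17354 genes, the quasi-likelihood test of edgeR called 0 genes (0% of those tested) at an adjusted p under 0.05, and the smallest adjusted p was 0.886. An unadjusted p under 0.05 was seen for 892 genes (5.14%), of which 560 had higher estimates (3.23%) and 332 lower (1.91%). The call was again 0 genes (0%) of 17185 without ASO2 tumor 1, with 674 (3.92%) at an unadjusted p under 0.05, 433 higher (2.52%) and 241 lower (1.4%). DESeq2, run as an alternative, called 45 genes (0.259%), 39 higher (0.225%) and 6 lower (0.0346%), and 15 genes (0.0873%) without ASO2 tumor 1, 11 higher (0.0640%) and 4 lower (0.0233%). Of those, 12 genes were called in both, and limma voom with quality weights called 0 genes in each case. The genes below are therefore described by their levels, and p-values given with them are unadjusted edgeR values unless another kind is named.

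A second description counted the genes whose ASO2 and scASO tumors did not overlap in CPM. There were 659 genes (3.80%) with all 4 ASO2 tumors above all 3 scASO tumors and 587 (3.38%) with all below. Without ASO2 tumor 1 these were 1111 (6.46%) and 993 (5.78%), since fewer tumors overlap less often. Estimates were above 0 for 55.2% of genes with all tumors and for 52.5% without ASO2 tumor 1. The 12 genes with the smallest p in each direction, at a mean of at least 1 on the log2 CPM scale, were Cd36, Fabp4, Lrrn4cl, Adipoq, Tnxb, Csn1s2a, Fkbp11, Car3, Csn2, Cfd, Ccl6 and Ccdc80 among higher estimates, and Sptb, Pdzd2, Rnf144b, Papln, Myh14, Zfpm1, Phf2, Furin, Phlpp1, Zmiz1, Utrn and Iffo2 among lower ones. Of these 24 genes, 16 were again among the 24 chosen by the same rule without ASO2 tumor 1.

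**Figure D2:**
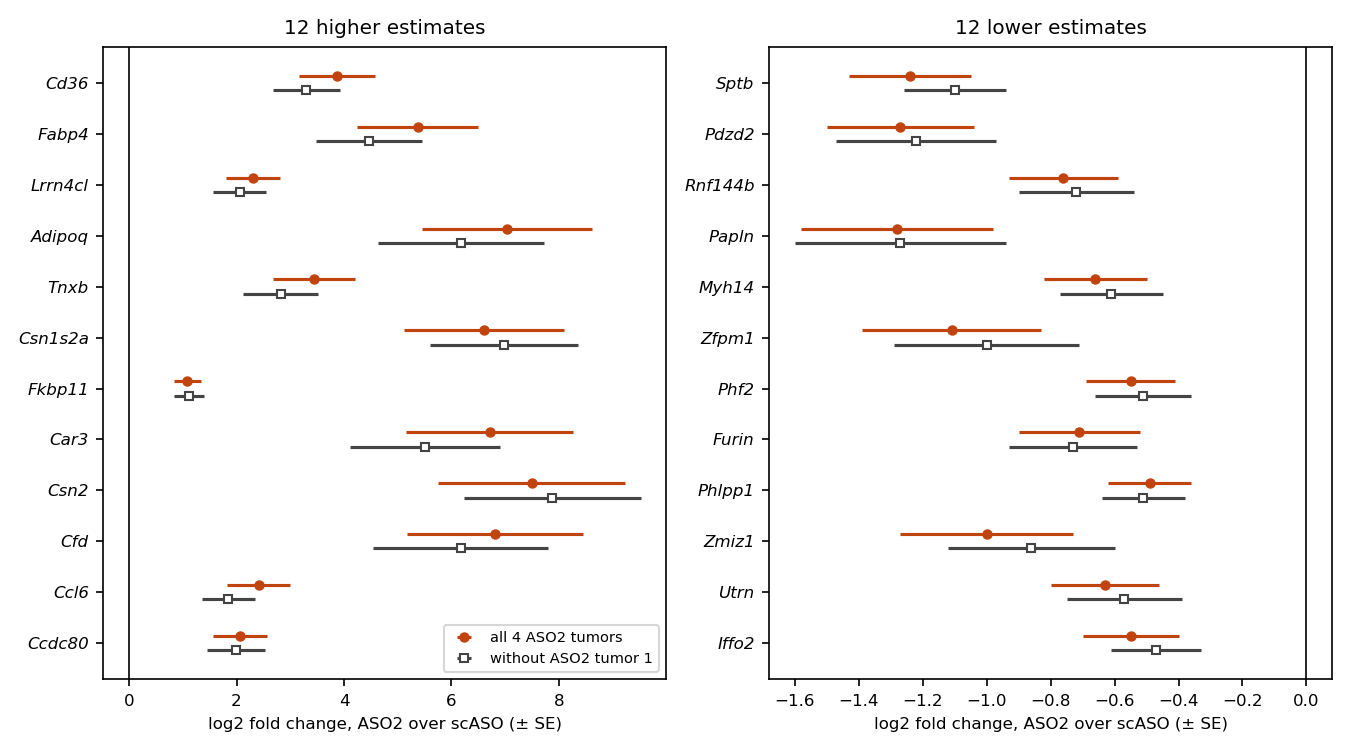
Log2 fold changes of ASO2 over scASO tumors with their SE from edgeR, for the 12 genes with the smallest p in each direction; circles are from all 4 ASO2 tumors and open squares from the 3 left without ASO2 tumor 1. The left and right panels have different scales. All 24 estimates kept their sign without ASO2 tumor 1, from 7.88 for Csn2 to -1.27 for Papln.

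Milk protein genes gave some of the largest estimates. Csn2, the gene of beta-casein, was at 42.2, 1361, 561 and 4.21 CPM in ASO2 tumors 1 to 4, against 3.30, 1.16 and 3.80 CPM in scASO tumors. Csn1s2a, an alpha-S2 casein gene, was at 22.3, 485, 316 and 6.10 CPM in ASO2 tumors, against 2.63, 1.16 and 2.63 CPM in scASO tumors. Both caseins were highest in ASO2 tumors 2 and 3, intermediate in tumor 1 and close to the control range in tumor 4, and neither overlapped the controls. Glycam1, a mucin-like glycoprotein secreted into milk, was at 18.0, 635, 182 and 0 CPM in ASO2 tumors, against 0.706, 0.445 and 1.47 CPM in scASO tumors. Its groups overlapped because no read was counted in ASO2 tumor 4. Csn1s2b, the neighbouring alpha-S2 casein gene, was at 2.59, 18.0, 18.7 and 2.52 CPM in ASO2 tumors and 1.52, 1.90 and 2.16 CPM in scASO tumors, without overlap. Their log2 fold changes were 7.49 ± 1.74 for Csn2, 6.61 ± 1.49 for Csn1s2a, 7.95 ± 2.2 for Glycam1 and 2.50 ± 0.80 for Csn1s2b, with unadjusted edgeR p-values of 0.00132, 0.0011, 0.00432 and 0.0101.

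The promoters of Csn2, Csn1s2a and Glycam1 are shown because milk gene promoters are the known sites of STAT5 action, a transcription factor activated by prolactin. RefSeq sequences in GRCm38.p6 cover 250 bases before to 50 bases after each start site, 5′ to 3′ on the gene's strand, and capitals mark matches to TTCNNNGAA, a STAT5-type motif that reads the same on both strands.
Csn2, minus strand, chr5:87699376-87699675: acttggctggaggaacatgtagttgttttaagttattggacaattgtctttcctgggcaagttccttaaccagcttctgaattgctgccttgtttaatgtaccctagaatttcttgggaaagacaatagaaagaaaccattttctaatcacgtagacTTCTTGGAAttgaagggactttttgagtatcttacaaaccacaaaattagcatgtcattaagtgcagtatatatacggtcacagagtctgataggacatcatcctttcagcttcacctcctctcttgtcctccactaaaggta
Csn1s2a, plus strand, chr5:87774200-87774499: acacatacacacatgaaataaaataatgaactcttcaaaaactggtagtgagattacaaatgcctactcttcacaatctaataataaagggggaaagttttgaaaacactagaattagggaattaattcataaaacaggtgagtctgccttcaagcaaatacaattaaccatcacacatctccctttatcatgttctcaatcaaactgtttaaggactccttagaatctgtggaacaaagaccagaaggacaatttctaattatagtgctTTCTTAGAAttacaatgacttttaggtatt
Glycam1, minus strand, chr15:103565032-103565331: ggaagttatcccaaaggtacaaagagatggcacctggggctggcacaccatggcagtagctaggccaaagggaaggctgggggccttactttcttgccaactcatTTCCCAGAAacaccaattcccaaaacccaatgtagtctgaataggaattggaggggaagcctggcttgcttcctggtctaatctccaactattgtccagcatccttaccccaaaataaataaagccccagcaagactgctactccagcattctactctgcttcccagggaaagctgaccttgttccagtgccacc
By the RefSeq start sites, the match lay 93 bases before the Csn2 start, 145 bases before the Glycam1 start and 20 bases after the Csn1s2a start. GENCODE M21 starts Csn2 at base 87699630 and Csn1s2a at base 87774567. By those starts, the Csn2 match lies after the start and the Csn1s2a match before it. Of the 12 milk protein genes, 10 had a promoter in the table and 4 of these held the motif, whereas 8.3% of all 32851 promoters of the same length held it. A match is a description of these letters only.

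Not all milk protein genes were higher in ASO2 tumors. Of the 12 members, all tested, 10 had estimates above 0 and 2 below, 5 had p under 0.05 in the higher direction, beside 3.23% of all genes, and 3 did not overlap with the controls, beside 3.80%. The median log2 fold change was 1.3, and 1.58 without ASO2 tumor 1. DESeq2 called 3 of the 12, all higher, beside 0.225% of all genes that it called in that direction. Csn3, kappa-casein and the most abundant member, was at 5327, 6002, 9694 and 8928 CPM in ASO2 tumors, against 10421, 9294 and 9840 CPM in scASO tumors. With Csn3 included, the 12 genes summed to 10809, 11950, 14147 and 14536 CPM in ASO2 tumors and 15137, 12186 and 13018 CPM in scASO tumors, which overlapped. In ASO1 tumors, Csn2 was at 0.603, 1.95 and 0.843 CPM, and the 12 genes had a median log2 fold change of -0.77 against scASO. Without ASO2 tumor 1 the estimates were 7.88 ± 1.64 for Csn2 and 6.98 ± 1.38 for Csn1s2a, and DESeq2's adjusted p was 4.53e-05 for Csn2 and 6.76e-05 for Csn1s2a.

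Genes of milk fat and of the prolactin pathway stayed near the controls as groups. Among 25 genes of milk fat and secretory differentiation, 11 estimates were above 0 and 14 below, with a median of -0.10. Thrsp, a nuclear protein of lipid synthesis, was at 318, 217, 735 and 388 CPM in ASO2 tumors and 167, 160 and 280 CPM in scASO tumors. Olah, the thioesterase that releases medium-chain fatty acids for milk fat, was at 0.975, 4.18, 10.8 and 0.631 CPM in ASO2 tumors and 0.565, 0.920 and 0.388 CPM in scASO tumors. Both were highest in ASO2 tumor 3 and overlapped the controls. On the lower side, Srebf1, a regulator of lipogenic genes, was at 898, 1175, 1056 and 823 CPM in ASO2 tumors and 1052, 1916 and 1410 CPM in scASO tumors. Muc1, a luminal mucin, was at 85.7, 141, 155 and 147 CPM in ASO2 tumors and 195, 157 and 256 CPM in scASO tumors, without overlap, at a log2 fold change of -0.62 ± 0.30. Of 14 genes of prolactin signalling and lactation control, 6 had estimates above 0 and 8 below. Elf5, a transcription factor of the alveolar lineage, was at 424, 461, 571 and 548 CPM in ASO2 tumors and 517, 547 and 540 CPM in scASO tumors. Ccnd1, cyclin D1, was at 116, 219, 227 and 188 CPM in ASO2 tumors and 201, 261 and 383 CPM in scASO tumors. Elf5 and Ccnd1 overlapped the controls. Fkbp11, a prolyl isomerase of the secretory pathway, was at 34.3, 31.0, 28.4 and 52.7 CPM in ASO2 tumors and 18.8, 14.6 and 18.3 CPM in scASO tumors, without overlap, at a log2 fold change of 1.08 ± 0.25 and of 1.12 ± 0.28 without ASO2 tumor 1. Without that tumor the medians were -0.01 for the milk fat genes and -0.07 for the prolactin genes.

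Adipocyte genes were high in ASO2 tumors 1, 3 and 4. Cd36, a fatty acid transporter of adipocytes, macrophages and capillaries, was at 66.3, 14.7, 38.7 and 14.5 CPM in ASO2 tumors, against 2.54, 1.72 and 2.63 CPM in scASO tumors. Fabp4, the adipocyte fatty acid carrier, was at 427, 6.54, 171 and 110 CPM in ASO2 tumors, against 5.02, 3.80 and 4.14 CPM in scASO tumors. Adipoq, the adipocyte hormone adiponectin, was at 74.7, 0.623, 32.8 and 18.7 CPM in ASO2 tumors, against 0.282, 0.356 and 0.0431 CPM in scASO tumors. For Fabp4 and Adipoq, ASO2 tumor 2 lay just above the controls, the other ASO2 tumors lay far above them, and the groups did not overlap. Cfd, the adipocyte protease adipsin, was at 358, 3.05, 209 and 115 CPM in ASO2 tumors and 0.903, 3.06 and 0.518 CPM in scASO tumors, with ASO2 tumor 2 inside the control range. Car3, a carbonic anhydrase abundant in fat and muscle, was at 481, 5.33, 132 and 98.7 CPM in ASO2 tumors and 0.508, 1.13 and 3.67 CPM in scASO tumors. Retn, the hormone resistin, was at 57.9, 0.467, 12.3 and 14.5 CPM in ASO2 tumors and 0.113, 0.297 and 0.0863 CPM in scASO tumors. Car3 and Retn did not overlap the controls.

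The fold changes of these genes were large with or without the first ASO2 tumor. The log2 fold changes were 3.87 ± 0.70 for Cd36, 5.37 ± 1.13 for Fabp4, 7.03 ± 1.58 for Adipoq and 6.94 ± 1.42 for Retn. They were 3.30 ± 0.62, 4.47 ± 0.99, 6.18 ± 1.54 and 5.72 ± 1.18 without ASO2 tumor 1. DESeq2's adjusted p for Cd36 was 1.70e-06 with all tumors and 4.53e-05 without that tumor, whereas for Adipoq it was 0.00198 and then 0.0779. Plin1, perilipin of the lipid droplet, was at 7.20, 0.0935, 6.08 and 3.37 CPM in ASO2 tumors and had 0 reads in all 3 scASO tumors. Against a floor of 3 counts over the scASO group its mean was at least 129-fold higher, and at least 97.8-fold higher without ASO2 tumor 1, where it no longer passed the filter on low counts. When ASO2 tumor 2 was left out instead, Plin1 was the single gene that edgeR called, with an adjusted p of 0.0266.

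As a list, 24 of 25 white adipocyte genes were tested and 23 had estimates above 0, with a median log2 fold change of 2.70. Of the 24, 16 had p under 0.05 in the higher direction, beside 3.23% of all genes, and 11 did not overlap with the controls, beside 3.80%. DESeq2 called 12 of them, all higher, beside 0.225% of all genes that it called in that direction. Without ASO2 tumor 1, 22 were tested, 19 had estimates above 0 and 11 had p under 0.05, beside 2.52% of all genes, with a median of 1.55. The whole list summed to 2404, 400, 1115 and 988 CPM in ASO2 tumors, 388, 448 and 436 CPM in ASO1 tumors and 366, 348 and 386 CPM in scASO tumors. Every ASO2 tumor thus lay above every scASO tumor, with tumor 2 close to them. Pnpla2, the adipose triglyceride lipase that many cells use and a member of the list, was at 159, 128, 134 and 195 CPM in ASO2 tumors and 130, 160 and 142 CPM in scASO tumors. Of 16 brown adipocyte genes, 11 were tested and 7 had estimates above 0, with a median of 0.16. Fabp3, a fatty acid carrier of muscle and brown fat, was at 0.788, 1.99, 4 and 0.526 CPM in ASO2 tumors and 0.0565, 0.0891 and 0.345 CPM in scASO tumors. These bulk libraries hold whatever tissue was taken with the tumor, and the part that adjoining fat had in these values was not tested.

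Summed over the list, fibroblast and pericyte genes lay highest in ASO2 tumors 1 and 3, although Fbln1 and Ccdc80 were highest in ASO2 tumor 2. Among 20 genes of fibroblasts and pericytes, 18 estimates were above 0, 8 had p under 0.05 in the higher direction, beside 3.23% of all genes, and 4 did not overlap with the controls, beside 3.80%, with a median of 0.78. With ASO2 tumor 1 left out, 14 of the 20 were above 0 and 4 had p under 0.05, beside 2.52% of all genes, with a median of 0.57. Mfap5, a microfibril protein, was at 40.9, 10.2, 35.8 and 16.1 CPM in ASO2 tumors and 4.57, 7.10 and 9.66 CPM in scASO tumors. Pi16, a marker of adventitial fibroblasts, was at 32.8, 5.98, 30.1 and 8.42 CPM in ASO2 tumors and 2.57, 3.09 and 4.92 CPM in scASO tumors. Both were highest in ASO2 tumors 1 and 3 and did not overlap with the controls. Lum, the matrix proteoglycan lumican, was at 158, 16.7, 36.0 and 14.8 CPM in ASO2 tumors and 6.44, 13.9 and 8.58 CPM in scASO tumors, and its log2 fold change of 2.55 ± 0.82 was 1.23 ± 0.49 without ASO2 tumor 1. Fbln1, a basement membrane fibulin, was at 17.0, 19.9, 11 and 3.16 CPM in ASO2 tumors and 3.70, 4.48 and 5.61 CPM in scASO tumors, with overlap. Tnxb, the matrix protein tenascin X, was at 20.4, 2.84, 10.2 and 6.42 CPM in ASO2 tumors and 0.819, 0.653 and 1.29 CPM in scASO tumors. Ccdc80, a secreted matrix-binding protein, was at 37.9, 48.9, 34.0 and 10.2 CPM in ASO2 tumors and 7.99, 5.64 and 10 CPM in scASO tumors. Lrrn4cl, a leucine-rich repeat membrane protein, was at 6.42, 2.99, 5.08 and 2.95 CPM in ASO2 tumors and 0.621, 0.624 and 1.42 CPM in scASO tumors. Tnxb, Ccdc80 and Lrrn4cl did not overlap with the controls, although ASO2 tumor 4 was close to them for Ccdc80. The 20 fibroblast genes summed to 3945, 1383, 2540 and 906 CPM in ASO2 tumors and 1185, 1206 and 1171 CPM in scASO tumors, so the shallow ASO2 tumor 4 lay below the controls in the sum. Estimates without ASO2 tumor 1 were 1.54 ± 0.52 for Mfap5, 2.08 ± 0.77 for Pi16, 2.82 ± 0.70 for Tnxb, 1.99 ± 0.54 for Ccdc80 and 2.06 ± 0.49 for Lrrn4cl.

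Mast cell protease genes were lowest in tumor 2 among the ASO2 tumors. Mcpt4, a connective tissue mast cell chymase, was at 6.15, 0.125, 0.800 and 0.947 CPM in ASO2 tumors and 0.113, 0.0891 and 0.0431 CPM in scASO tumors. Cma1, another chymase, was at 3.94, 0.0935, 1.72 and 1.05 CPM in ASO2 tumors and 0.0847, 0.238 and 0.173 CPM in scASO tumors. Tpsb2, a tryptase, was at 4.61, 0.249, 1.32 and 0.736 CPM in ASO2 tumors and 0.198, 0.208 and 0 CPM in scASO tumors. These proteases were highest in ASO2 tumor 1 and near the controls in ASO2 tumor 2, with overlap for Cma1. Mcpt4 did not overlap in CPM, but ASO2 tumor 2 and scASO tumor 1 had 4 reads each and differed only by scaling. Tpsb2 had 8 reads in ASO2 tumor 2, against 7 in each of scASO tumors 1 and 2. Kit, the receptor of stem cell factor, which luminal progenitors share with mast cells, was at 796, 365, 452 and 480 CPM in ASO2 tumors and 713, 495 and 436 CPM in scASO tumors. Of 8 mast cell genes, 4 were tested and 3 had p under 0.05 in the higher direction, beside 3.23% of all genes. Of these, 3 were tested without ASO2 tumor 1, and 2 had p under 0.05, beside 2.52%.

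Fast skeletal muscle genes were highest in ASO2 tumor 1, and above the controls in ASO2 tumor 4 at a lower level. Mylpf, the fast myosin regulatory light chain, was at 327, 6.11, 1.32 and 14.9 CPM in ASO2 tumors, against 1.33, 0.831 and 4.96 CPM in scASO tumors. Tnni2, fast troponin I, was at 351, 4.14, 2.56 and 9.05 CPM in ASO2 tumors, against 1.04, 0.831 and 4.79 CPM in scASO tumors. Myh4, the fast type 2B myosin heavy chain, was at 551, 3.61, 0 and 13.8 CPM in ASO2 tumors, against 0.931, 0.208 and 3.15 CPM in scASO tumors. ASO2 tumors 1 and 4 were above every control for Mylpf, Tnni2 and Myh4, tumor 2 was for Mylpf and Myh4, and tumor 3 for none of them. Myoz1, a Z-disc protein of fast fibres, was at 50.6, 0.623, 0 and 1.89 CPM in ASO2 tumors, against 0.0565, 0.0297 and 0.345 CPM in scASO tumors. Of 20 fast muscle genes, 19 were tested, all with estimates above 0 and 17 with p under 0.05, beside 3.23% of all genes in the higher direction, yet 0 of them had groups that did not overlap, beside 3.80%, and the median log2 fold change was 4.72. Without ASO2 tumor 1, 18 were tested, all with estimates above 0 and 0 with p under 0.05, beside 2.52% of all genes, and the median was 1.12. The list summed to 3605, 70.0, 22.8 and 127 CPM in ASO2 tumors, 19.1, 30.3 and 26.9 CPM in ASO1 tumors and 25.5, 22.8 and 70.3 CPM in scASO tumors. Myosin heavy chain genes are close in sequence, and the files do not say how reads shared between them were counted.

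Ttn, Ucp3 and Pdk4, of muscle and its metabolism, were also highest in ASO2 tumor 1, while Actc1 was highest in ASO2 tumor 4. Ttn, the giant sarcomere protein titin, was at 157, 3.08, 1.44 and 3.37 CPM in ASO2 tumors and 1.78, 1.16 and 2.98 CPM in scASO tumors. Its log2 fold change of 4.40 ± 1.59 was 0.42 ± 0.50 without ASO2 tumor 1. Actc1, cardiac actin, was at 1.05, 0.0935, 0.440 and 1.58 CPM in ASO2 tumors and 0.0565, 0.0891 and 0 CPM in scASO tumors. Its groups did not overlap in CPM, but ASO2 tumor 2 and scASO tumor 2 had 3 reads each and differed only by scaling. The log2 fold change of Actc1 was 3.73 ± 0.99 with all tumors and 3.49 ± 1.08 without ASO2 tumor 1. Of 18 genes of slow, cardiac and embryonic muscle, 9 were tested, with a median of 1.36 that was 0.23 without ASO2 tumor 1. Ucp3, a mitochondrial carrier of muscle and fat, was at 2.63, 0.530, 1.76 and 0.421 CPM in ASO2 tumors and 0.254, 0.386 and 0.216 CPM in scASO tumors. Pdk4, the kinase that inhibits pyruvate dehydrogenase, was at 11, 1.15, 3.32 and 1.37 CPM in ASO2 tumors and 1.13, 0.505 and 0.604 CPM in scASO tumors. Both did not overlap with the controls, and both belong to a list of 20 genes of fatty acid oxidation and mitochondria that had 13 estimates above 0 and a median of 0.11.

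**Figure D3:**
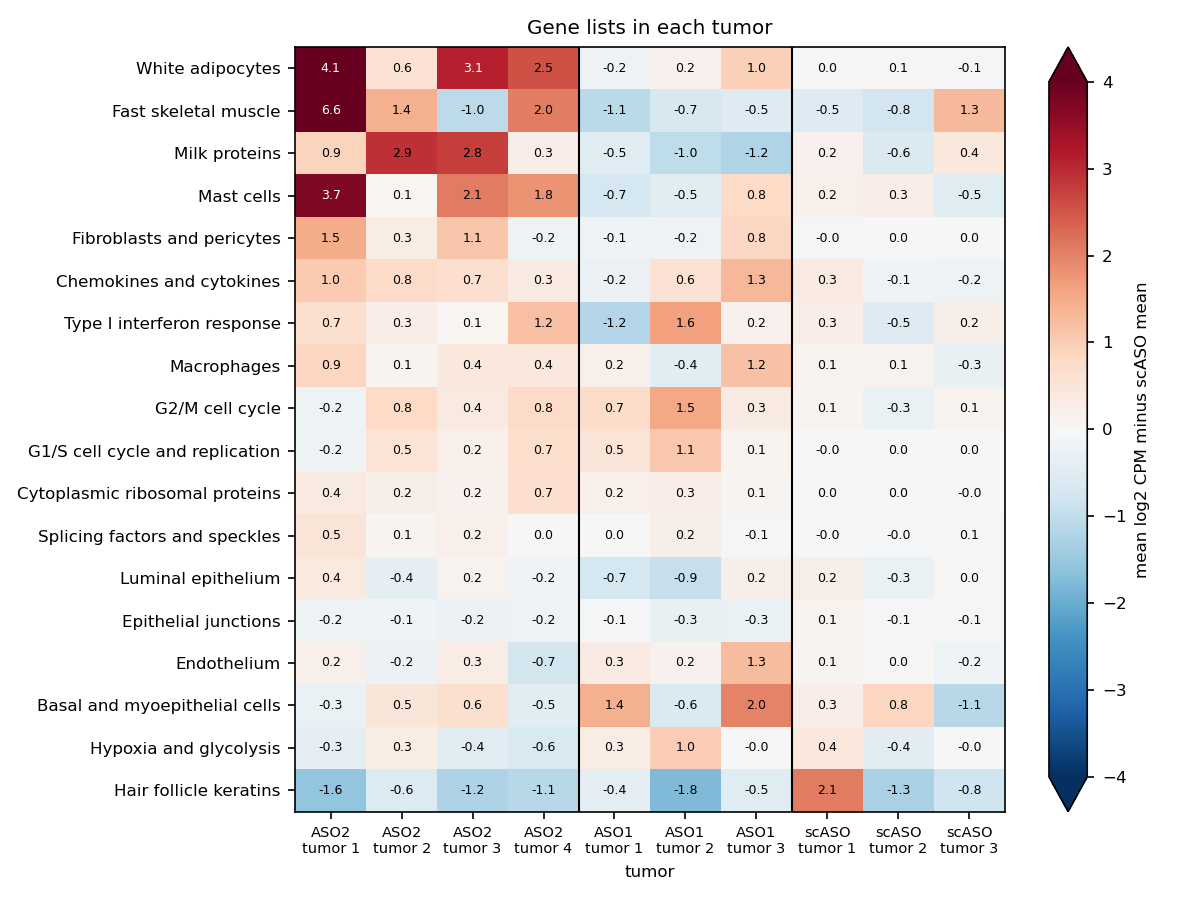
Mean log2 CPM of the tested members of 18 gene lists in each tumor, less the mean of the 3 scASO tumors, with ASO2, ASO1 and scASO tumors from left to right; red is higher and blue lower, and each cell prints its value. White adipocyte and mast cell genes were high in ASO2 tumors 1, 3 and 4, fast skeletal muscle genes were highest in ASO2 tumor 1, and milk protein genes were high in ASO2 tumors 2 and 3.

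Sptb led the genes with lower levels in ASO2 tumors. Sptb (ENSMUSG00000021061), beta-spectrin of the red cell membrane skeleton, lies on the minus strand of chromosome 12, bases 76580488 to 76710547 in GRCm38. It was at 38.7, 52.0, 64.6 and 58.1 CPM in ASO2 tumors, against 131, 143 and 104 CPM in scASO tumors. Each ASO2 tumor was well below the lowest control, and the ASO2 mean was 42.3% of the scASO mean. The log2 fold change was -1.24 ± 0.19, with an unadjusted edgeR p of 5.39e-05, the smallest of all genes. In edgeR without ASO2 tumor 1 it was -1.10 ± 0.16, with an unadjusted p of 6.24e-05. DESeq2's adjusted p was 5.49e-05 with all tumors and 1.33e-05 without ASO2 tumor 1. Exons of Plekhg3 overlap Sptb on the opposite strand, and no source used here says whether counting used the strand. Of 7 globin and other red cell genes, 5 were tested, all with estimates below 0 and a median of -0.58. Among them 0 had p under 0.05, beside 1.91% of all genes in the lower direction. The 7 summed to 24.2, 30.0, 29.7 and 18.4 CPM in ASO2 tumors and 36.8, 52.9 and 27.5 CPM in scASO tumors, with overlap. Over the 16 organoid libraries the globin genes of that list were at 0 CPM, while Sptb ran from 108 to 297 CPM. The part of red cells in the Sptb values of the tumors was not tested.

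Pdzd2, a multi-PDZ-domain protein, was at 40.7, 44.7, 58.3 and 36.0 CPM in ASO2 tumors, against 114, 139 and 72.5 CPM in scASO tumors, at a log2 fold change of -1.27 ± 0.23. Papln, the matrix protein papilin, was at 258, 322, 261 and 189 CPM in ASO2 tumors, against 572, 753 and 553 CPM in scASO tumors, at -1.28 ± 0.30. Zfpm1, the cofactor of GATA transcription factors also called FOG1, was at 6.45, 9.60, 10 and 6.42 CPM in ASO2 tumors, against 14.5, 20.8 and 17.3 CPM in scASO tumors, at -1.11 ± 0.28. For Pdzd2, Papln and Zfpm1, every ASO2 tumor was below every scASO tumor. Zmiz1, a coactivator related to the PIAS proteins, was at 64.5, 110, 125 and 63.1 CPM in ASO2 tumors, against 177, 222 and 148 CPM in scASO tumors, at -1.0 ± 0.27. Rnf144b, an E3 ubiquitin ligase, was at 31.7, 38.3, 41.0 and 27.0 CPM in ASO2 tumors, against 63.3, 61.6 and 51.2 CPM in scASO tumors, at -0.76 ± 0.17. Furin, the proprotein convertase, was at 181, 166, 186 and 149 CPM in ASO2 tumors, against 239, 366 and 232 CPM in scASO tumors, at -0.71 ± 0.19. Zmiz1, Rnf144b and Furin did not overlap with the controls either. Opposite-strand genes overlap exons of Furin and Zmiz1, as they do for Myh14 and Phf2 below.

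The remaining lower estimates were smaller. Myh14, a non-muscle myosin heavy chain of epithelia, was at 140, 173, 151 and 139 CPM in ASO2 tumors and 241, 275 and 196 CPM in scASO tumors, at -0.66 ± 0.16. Utrn, utrophin, which links actin to the dystroglycan complex, was at 70.8, 92.2, 86.3 and 65.3 CPM in ASO2 tumors and 145, 117 and 104 CPM in scASO tumors, at -0.63 ± 0.17. Phf2, a histone H3K9 demethylase, was at 60.7, 70.8, 70.2 and 62.4 CPM in ASO2 tumors and 90.8, 110 and 90.0 CPM in scASO tumors, at -0.55 ± 0.14. Myh14, Utrn and Phf2 were lower in every ASO2 tumor than in every scASO tumor. Iffo2, an intermediate filament family protein, was at 56.5, 63.5, 80.8 and 70.0 CPM in ASO2 tumors and 106, 105 and 86.8 CPM in scASO tumors, at -0.55 ± 0.15. Phlpp1, a phosphatase that acts on Akt, was at 66.2, 62.2, 65.8 and 57.1 CPM in ASO2 tumors and 88.2, 84.6 and 91.8 CPM in scASO tumors, at -0.49 ± 0.13. Iffo2 and Phlpp1 did not overlap with the controls. The 12 estimates lay between -1.27 for Papln and -0.47 for Iffo2 without ASO2 tumor 1. DESeq2 called each of the 12 higher genes with all tumors. Of the 12 lower genes, it called Sptb, Pdzd2, Rnf144b, Papln, Myh14 and Phlpp1 with all tumors, and of these it called Sptb and Pdzd2 without ASO2 tumor 1.

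Leaving out ASO2 tumor 1 brought other genes forward. Zfp385b, a zinc finger gene, was at 4.09, 0.467, 1.32 and 0.210 CPM in ASO2 tumors, against 9.71, 6.03 and 4.70 CPM in scASO tumors. Its log2 fold change was -2.13 ± 0.76 with all tumors and -3.28 ± 0.62 without ASO2 tumor 1, the highest of its group, where DESeq2's adjusted p was 1.27e-04. Ulk3, a kinase of the autophagy ULK family, was at 66.9, 37.0, 38.5 and 41.2 CPM in ASO2 tumors, against 55.3, 53.3 and 52.5 CPM in scASO tumors. Its log2 fold change was -0.23 ± 0.20 with all tumors and -0.46 ± 0.12 without ASO2 tumor 1, since that tumor was the only one above the controls. Acot1, a cytosolic acyl-CoA thioesterase, was at 43.6, 90.0, 56.6 and 75.2 CPM in ASO2 tumors, against 50.9, 34.9 and 34.0 CPM in scASO tumors, at 0.73 ± 0.25 and at 0.90 ± 0.22 without ASO2 tumor 1. Stc1, the secreted glycoprotein stanniocalcin 1, was at 9.04, 6.08, 7.52 and 5.58 CPM in ASO2 tumors, against 12.4, 11.8 and 11.2 CPM in scASO tumors. Adgrl3, the adhesion receptor latrophilin 3, was at 13.3, 9.63, 11 and 5.37 CPM in ASO2 tumors, against 16.2, 17.5 and 17.5 CPM in scASO tumors. Ano1, a calcium-activated chloride channel of epithelia, was at 591, 479, 590 and 455 CPM in ASO2 tumors, against 706, 925 and 840 CPM in scASO tumors. Stc1, Adgrl3 and Ano1 did not overlap with the controls, with or without ASO2 tumor 1.

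Cell cycle genes leaned higher in the ASO2 tumors, more so without ASO2 tumor 1. Birc5, survivin of the chromosomal passenger complex, was at 63.5, 52.6, 46.2 and 90.3 CPM in ASO2 tumors, against 33.6, 25.0 and 38.9 CPM in scASO tumors, at a log2 fold change of 0.96 ± 0.30. Cdk1, the kinase of mitotic entry, was at 82.0, 93.7, 70.8 and 127 CPM in ASO2 tumors, against 58.4, 48.3 and 62.6 CPM in scASO tumors, at 0.72 ± 0.29. Neither Birc5 nor Cdk1 overlapped with the controls. Ndc80, a kinetochore protein, was at 12.7, 24.1, 21.1 and 26.2 CPM in ASO2 tumors and 13.0, 9.68 and 13.9 CPM in scASO tumors. Cenpa, the centromeric histone, was at 36.5, 54.2, 31.4 and 61.6 CPM in ASO2 tumors and 29.5, 22.4 and 36.8 CPM in scASO tumors. Mki67, the proliferation marker Ki-67, was at 250, 332, 388 and 386 CPM in ASO2 tumors and 307, 206 and 281 CPM in scASO tumors. Ndc80 and Mki67 were inside the control range in ASO2 tumor 1 and above it in the others, while Cenpa was inside it in tumors 1 and 3.

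All 28 G2/M genes were tested and all had estimates above 0, with a median of 0.47; 5 had p under 0.05 and 3 did not overlap with the controls, beside 3.23% and 3.80% of all genes. Without ASO2 tumor 1 the median was 0.68, 8 had p under 0.05 and 18 did not overlap, beside 2.52% and 6.46% of all genes. The list summed to 1127, 1993, 1609 and 2059 CPM in ASO2 tumors, 2052, 3574 and 1483 CPM in ASO1 tumors and 1332, 1010 and 1329 CPM in scASO tumors. ASO2 tumor 1 was thus inside the control range and the other ASO2 tumors above it. Of 24 genes of G1/S and DNA replication, 22 had estimates above 0, with a median of 0.41, 2 with p under 0.05 and 6 without overlap, and without ASO2 tumor 1 the median was 0.50, with 8 and 15, beside the same shares of all genes. Rrm2, a subunit of ribonucleotide reductase, was at 57.8, 67.5, 55.8 and 195 CPM in ASO2 tumors and 44.5, 35.8 and 53.9 CPM in scASO tumors. Rpa2, of the complex that binds single-stranded DNA, was at 35.3, 42.2, 32.6 and 54.4 CPM in ASO2 tumors and 27.0, 27.9 and 29.4 CPM in scASO tumors. Rrm2 and Rpa2 did not overlap with the controls, and each was highest in ASO2 tumor 4. Rrm1, the other reductase subunit, was at 67.3, 129, 160 and 127 CPM in ASO2 tumors and 93.6, 105 and 97.9 CPM in scASO tumors, with ASO2 tumor 1 below the controls. No cell cycle gene passed the adjusted threshold in edgeR or DESeq2.

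**Figure D4:**
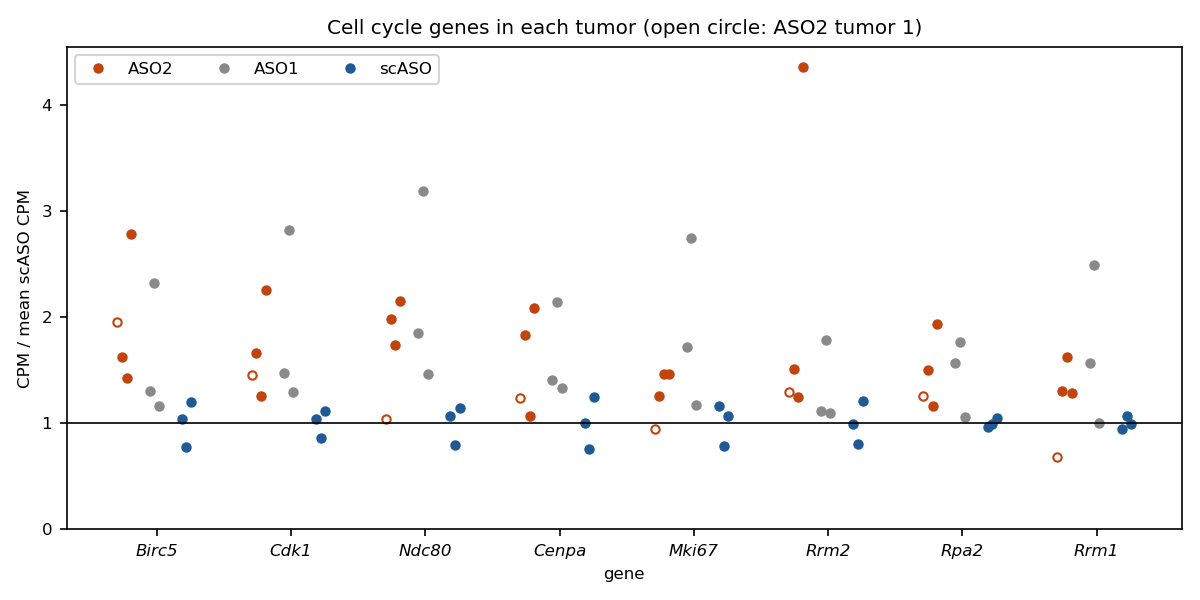
CPM of 8 cell cycle genes in each tumor, divided by the mean of the 3 scASO tumors, with ASO2, ASO1 and scASO tumors from left to right for each gene; open circles are ASO2 tumor 1 and the line at 1 is the scASO mean. The highest ASO2 point is Rrm2 in ASO2 tumor 4, at 195 CPM, and ASO2 tumor 1 lies below the line for Mki67 and Rrm1.

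Ribosomal protein and splicing factor genes had small positive estimates. Of 30 genes of cytoplasmic ribosomal proteins, 28 had estimates above 0, with a median of 0.35, 7 with p under 0.05 and 6 without overlap, beside 3.23% and 3.80% of all genes in the higher direction, and without ASO2 tumor 1 the median was 0.41. Estimates above 0 were 55.2% of those of all genes. Rpl38 was at 31.7, 23.5, 25.3 and 35.7 CPM in ASO2 tumors and 14.3, 14.5 and 18.3 CPM in scASO tumors, at a log2 fold change of 0.89 ± 0.25. Rpl38 did not overlap with the controls, whereas Rpl4, at 1092, 1625, 1856 and 2203 CPM in ASO2 tumors and 1393, 1383 and 1240 CPM in scASO tumors, did. Ribosomal protein genes have many processed copies in the genome, and their levels are uncertain where reads were shared. Of 25 genes of splicing factors and nuclear speckles, where Malat1 resides, 22 had estimates above 0, with a median of 0.28 that was 0.12 without ASO2 tumor 1. Srsf10, an SR protein, was at 253, 184, 207 and 195 CPM in ASO2 tumors and 138, 151 and 156 CPM in scASO tumors. Tra2a, a related splicing activator, was at 366, 215, 228 and 200 CPM in ASO2 tumors and 175, 123 and 188 CPM in scASO tumors. Srsf10 and Tra2a did not overlap with the controls and were highest in ASO2 tumor 1. Srrm2, a core protein of speckles, was at 1137, 1117, 919 and 632 CPM in ASO2 tumors and 1107, 1112 and 1146 CPM in scASO tumors, with overlap.

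Several chemokine genes did not overlap between ASO2 and scASO tumors. Ccl7, a monocyte attractant, was at 5.44, 4.21, 2.56 and 3.16 CPM in ASO2 tumors, against 0.790, 0.475 and 1.60 CPM in scASO tumors, at a log2 fold change of 2.02 ± 0.56. Ccl2, another monocyte attractant, was at 4.43, 4.05, 3.92 and 3.26 CPM in ASO2 tumors, against 2.4, 1.75 and 2.07 CPM in scASO tumors, at 0.92 ± 0.37. Ccl5, which attracts T cells, was at 11, 6.23, 6.72 and 9.26 CPM in ASO2 tumors, against 1.72, 3.21 and 4.83 CPM in scASO tumors, at 1.35 ± 0.48. Ccl7, Ccl2 and Ccl5 did not overlap with the controls. Ccl11, the eosinophil attractant eotaxin, was at 10.4, 1.4, 6.48 and 2.31 CPM in ASO2 tumors and 0.593, 1.54 and 0.949 CPM in scASO tumors, with ASO2 tumor 2 inside the control range. Ccl6, a mouse chemokine of myeloid cells, was at 60.1, 15.4, 27.4 and 19.6 CPM in ASO2 tumors and 6.18, 4.87 and 6.30 CPM in scASO tumors, without overlap. Of 20 listed chemokines and cytokines, which did not include Ccl6, 19 were tested and 16 had estimates above 0, with a median of 0.77. In the higher direction 5 had p under 0.05, beside 3.23% of all genes, and 5 did not overlap with the controls, beside 3.80%. With ASO2 tumor 1 left out, 3 had p under 0.05, beside 2.52% of all genes, and the median was 0.55. The estimates without that tumor were 1.81 ± 0.58 for Ccl7, 0.86 ± 0.39 for Ccl2, 1.19 ± 0.51 for Ccl5 and 1.85 ± 0.49 for Ccl6.

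Macrophage and interferon genes overlapped more, with Mrc1 as an exception. Mrc1, the mannose receptor of tissue macrophages, was at 61.2, 10.6, 16.3 and 10.6 CPM in ASO2 tumors and 7.11, 4.01 and 5.05 CPM in scASO tumors, without overlap. Of 18 macrophage genes, 15 had estimates above 0, beside 55.2% of all genes. In the higher direction 1 of them had p under 0.05, beside 3.23% of all genes, and 1, Mrc1, was without overlap, beside 3.80%. The macrophage list summed to 2446, 1566, 2395 and 2253 CPM in ASO2 tumors and 2065, 1952 and 1228 CPM in scASO tumors. Of 24 genes of the type I interferon response, 23 had estimates above 0, with a median of 0.54. Among them 0 had p under 0.05 and 0 were without overlap, beside 3.23% and 3.80% of all genes in the higher direction. Oas2, an enzyme that senses double-stranded RNA, was at 721, 208, 144 and 470 CPM in ASO2 tumors and 143, 50 and 168 CPM in scASO tumors. Ifi27l2a, an interferon-induced gene, was at 41.6, 17.7, 9.24 and 26.8 CPM in ASO2 tumors and 8.64, 6.09 and 9.53 CPM in scASO tumors. Irf7, a transcription factor of the interferon response, was at 414, 299, 277 and 695 CPM in ASO2 tumors and 282, 222 and 357 CPM in scASO tumors. For Oas2, Ifi27l2a and Irf7, ASO2 tumor 3 lay inside the control range, and ASO2 tumor 1 or 4 was highest. Of 16 genes of nucleic acid sensing and oligonucleotide uptake, 15 were tested, with a median of 0.12. In the higher direction 1 had p under 0.05, beside 3.23% of all genes. Serping1, the inhibitor of complement C1, was at 58.5, 11, 48.6 and 11 CPM in ASO2 tumors and 8.21, 8.25 and 9.66 CPM in scASO tumors, without overlap. It belongs to a list of 13 tested acute phase and complement genes, with 9 estimates above 0, 4 below and a median of 0.68. In that list 1 gene was without overlap in the higher direction, beside 3.80% of all genes. The most abundant member overlapped the controls, at a log2 fold change of -0.36 ± 0.34.

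Epithelial junction genes leaned lower. Of 24 genes, 19 had estimates below 0, with a median of -0.15; 5 were without overlap in the lower direction, beside 3.38% of all genes, and 2 had p under 0.05, beside 1.91% in that direction. Dsg2, a desmosomal cadherin, was at 91.4, 116, 148 and 137 CPM in ASO2 tumors and 201, 160 and 155 CPM in scASO tumors. Jup, the junction protein plakoglobin, was at 253, 350, 263 and 326 CPM in ASO2 tumors and 399, 436 and 389 CPM in scASO tumors. Tjp3, a tight junction scaffold, was at 90.3, 69.0, 64.4 and 85.8 CPM in ASO2 tumors and 109, 90.5 and 95.1 CPM in scASO tumors, and Pkp1, a desmosomal plaque protein, was at 32, 39.6, 39.6 and 12 CPM in ASO2 tumors and 47.6, 88.7 and 42.5 CPM in scASO tumors. Dsg2, Jup, Tjp3 and Pkp1 did not overlap with the controls, at log2 fold changes of -0.49 ± 0.19 for Dsg2, -0.45 ± 0.18 for Jup, -0.34 ± 0.16 for Tjp3 and -0.95 ± 0.48 for Pkp1. Cdh1, given above, had an estimate of -0.24 ± 0.18. Of 22 genes of mesenchymal transition, 13 had estimates above 0, with a median of 0.20 that was 0.05 without ASO2 tumor 1. Lox, the collagen cross-linking enzyme, was at 59.2, 12, 65.7 and 14.3 CPM in ASO2 tumors and 10.6, 9.32 and 9.19 CPM in scASO tumors. Fn1, fibronectin, was at 137, 166, 123 and 34.3 CPM in ASO2 tumors and 64.0, 31.0 and 38.6 CPM in scASO tumors. Spock1, a matrix proteoglycan, was at 0.300, 0.187, 0.440 and 0 CPM in ASO2 tumors and 0.677, 1.01 and 1.55 CPM in scASO tumors. Lox was above the controls and Spock1 below them in every ASO2 tumor, while Fn1 overlapped in ASO2 tumor 4.

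Genes tied to invasion and metastasis gave no common direction. Of 20 listed genes, 19 were tested, 10 had estimates above 0 and 9 below, and the median was 0.00. Mmp3, a matrix metalloprotease, was at 52.1, 13.7, 22.2 and 10.4 CPM in ASO2 tumors and 6.35, 6.47 and 6.17 CPM in scASO tumors. Angptl4, a secreted inhibitor of lipoprotein lipase, was at 17.2, 15.1, 13.5 and 13.0 CPM in ASO2 tumors and 11.5, 3.09 and 5.05 CPM in scASO tumors. Spp1, osteopontin, was at 397, 1943, 963 and 566 CPM in ASO2 tumors and 2686, 708 and 4081 CPM in scASO tumors. Mmp3 and Angptl4 did not overlap with the controls, and Spp1 did. DESeq2's adjusted p for Mmp3 was 0.0481 with all tumors and 0.287 without ASO2 tumor 1.

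Other cell types were spread widely within groups. Of 16 basal and myoepithelial genes, 5 had estimates above 0 and 11 below, and they summed to 1148, 2085, 2352 and 1067 CPM in ASO2 tumors and 1688, 2828 and 890 CPM in scASO tumors. Krt5, a basal keratin, was at 38.8, 124, 102 and 81.3 CPM in ASO2 tumors and 159, 236 and 47.5 CPM in scASO tumors. Actg2, a smooth muscle actin, was at 15.4, 33.9, 27.0 and 20.9 CPM in ASO2 tumors and 4.26, 14.4 and 0.819 CPM in scASO tumors, without overlap. Hair follicle keratins summed to 12, 13.5, 6.52 and 6.21 CPM in ASO2 tumors and 133, 5.11 and 13.2 CPM in scASO tumors. Cornified epithelial genes summed to 187, 96, 144 and 183 CPM in ASO2 tumors and 191, 132 and 99.8 CPM in scASO tumors, with overlap. Some cornified genes were high in scASO tumor 1. Krt16, a keratin of stratified epithelia, was at 0.225, 0.499, 0.0400 and 0.316 CPM in ASO2 tumors and 14.5, 0.0891 and 0.518 CPM in scASO tumors. Dsg3, an epidermal desmosomal cadherin, was at 0.225, 0.436, 0.120 and 0.421 CPM in ASO2 tumors and 4.60, 0.445 and 0.431 CPM in scASO tumors. The median of -1.48 for 6 tested hair follicle genes therefore leans on that control tumor. The median of -0.22 for 12 tested cornified genes may lean on it too, although its cornified sum was close to those of ASO2 tumors 1 and 4. Of 20 endothelial genes, 15 had estimates below 0, with a median of -0.19. Tie1, an endothelial receptor, was at 4.13, 4.33, 6.40 and 4 CPM in ASO2 tumors and 7.25, 7.87 and 8.37 CPM in scASO tumors, without overlap. Lyve1, of lymphatic endothelium and some macrophages, was at 9.98, 2.09, 1.24 and 1.37 CPM in ASO2 tumors and 0.819, 0.238 and 0.216 CPM in scASO tumors, without overlap.

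The remaining lists are given by their medians. The medians were 0.18 for 19 immediate early genes, 0.13 for 20 genes of the unfolded protein and integrated stress response, 0.05 for 19 genes of cholesterol synthesis and 0.04 for 24 targets of Wnt, Notch, TGF-beta and growth factors. Hypoxia and glycolysis genes had a median of -0.21 over 20 genes, with 15 below 0, and Schwann cell and nerve genes one of -0.22 over 10. T and NK cell genes had a median of 0.42 over 15 tested, 13 of them above 0, B and plasma cell genes 0.40 over 5 and neutrophil genes -0.45 over 6. Each of these lists had 0 genes at p under 0.05 in either direction, beside 5.14% of all genes. Without ASO2 tumor 1 the medians were 0.37 for T and NK cell genes, 0.05 for B and plasma cell genes, -0.33 for neutrophil genes and -0.22 for hypoxia and glycolysis genes. On the same basis they were 0.56 for interferon genes, 0.34 for macrophage genes, 0.47 for acute phase and complement genes, -0.13 for junction genes, -0.03 for invasion genes, -0.21 for endothelial genes and 0.05 for basal genes.

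**Figure D5:**
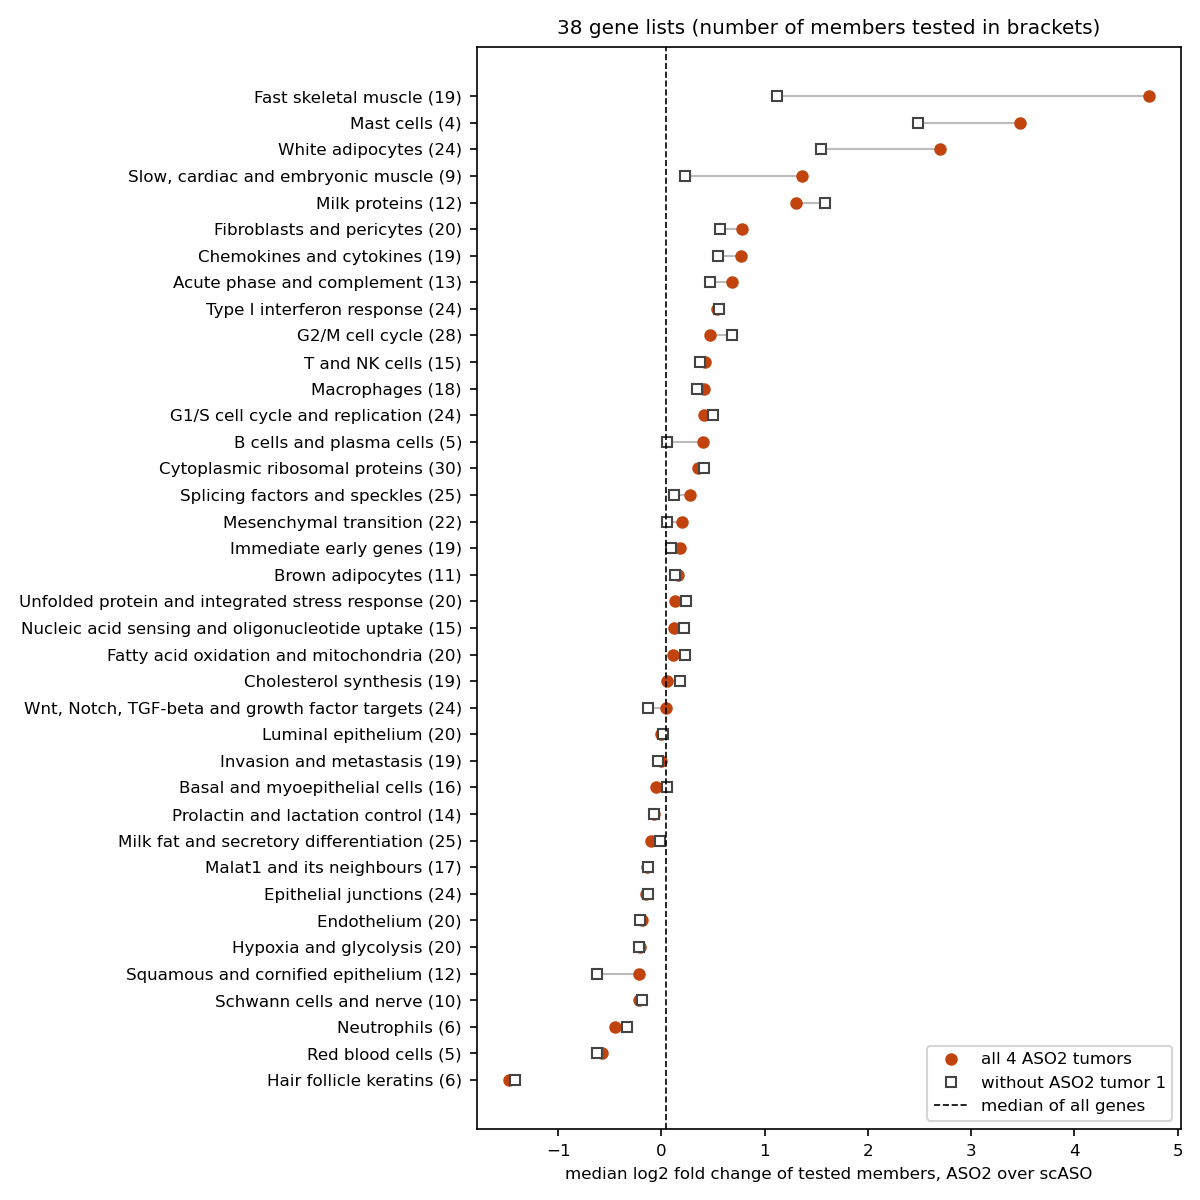
Median log2 fold change of ASO2 over scASO tumors for the tested members of 38 gene lists, with the number tested in brackets; circles are from all 4 ASO2 tumors, open squares without ASO2 tumor 1, and the dashed line is the median of all genes, 0.04. The fast skeletal muscle median was 4.72 with that tumor and 1.12 without it, and the milk protein median 1.3 with it and 1.58 without it.

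ASO1 tumors place these values beside a different Malat1 oligonucleotide, given at the same weekly dose. The ASO2 and ASO1 comparisons share the 3 scASO tumors, so each comparison's own values are given. Between ASO2 and ASO1 tumors edgeR called 0 of 17354 genes (0%), while 1743 genes (10%) had an unadjusted p under 0.05, DESeq2 called 149 genes and limma voom 0. Sptb was at 51.5, 48.6 and 41.5 CPM in ASO1 tumors, below all scASO tumors as in the ASO2 group, with an ASO2 to ASO1 log2 fold change of 0.18. Pdzd2 was at 54.7, 64.5 and 56.5 CPM, Papln at 363, 152 and 346 CPM and Furin at 193, 169 and 160 CPM in ASO1 tumors. All 12 lower genes had estimates below 0 in ASO1 against scASO tumors, and 3 of the 12 had p under 0.05 between ASO2 and ASO1 tumors. Among the 12 higher genes, 8 had estimates above 0 in ASO1 against scASO tumors, and 11 had p under 0.05 between ASO2 and ASO1 tumors. The genes of both directions were picked by their ASO2 and scASO values, which these counts reuse. The counts were therefore tilted in advance, and they cannot show whether the ASO1 and ASO2 tumors agree or differ. Cd36 was at 1.94, 4.61 and 9.13 CPM and Fabp4 at 3.57, 11.3 and 13.0 CPM in ASO1 tumors, with ASO2 to ASO1 log2 fold changes of 2.68 and 4.26. Zfp385b was lower still in ASO1 tumors, at 0.258, 0.332 and 0.539 CPM.

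Organoid cultures, which grow from tumor epithelium in Matrigel without fat pad or muscle, were treated with 500 nM oligonucleotide for 6 days. Their values are set beside those of tumors with no test, since dose, time and culture differ, and since Malat1 in the libraries labelled Organoid ASO2 replicate 1, at 1343 CPM, and Organoid scASO replicate 2, at 106 CPM, went against those labels. Adipoq, Csn2, Csn1s2a and Car3 reached no more than 0.397, 0.332, 0.427 and 0.172 CPM in any of the 16 organoid libraries. Sptb was at 260, 254, 135 and 184 CPM in organoids labelled ASO2 and at 193, 184, 138 and 171 CPM in those labelled scASO, which overlapped. Pdzd2 was at 129, 113, 128 and 111 CPM in organoids labelled ASO2 and at 118, 111, 160 and 92.8 CPM in those labelled scASO, which also overlapped. Fabp4 ranged from 0.917 to 67.1 CPM and Cd36 from 0.603 to 13.8 CPM over the 16 organoid libraries.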

How the data were processed

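Polyadenylated RNA was sequenced from libraries made with TruSeq chemistry from 1 µg of RNA per sample, per the labels' protocols. Each deposited file holds raw read counts per Ensembl gene for 1 sample, made by the authors. CASAVA, FastQC, STAR, HTSeq and DESeq2 and the build mm9 are named in the submitters' processing notes, without versions or strand setting. HTSeq's summary lines were removed, and symbols and GRCm38 coordinates came from GENCODE M21, which matched 32620 of 37310 gene IDs. Unassigned reads without a feature came to 11.1% to 24.5% of the number of reads in genes in the ASO2 and scASO tumors.

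From the counts, genes were tested with edgeR 4.0.16 in R 4.3.3 (TMM scaling, a filter on low counts with a minimum of 10 and a total of 15, quasi-likelihood F test, Benjamini-Hochberg adjustment, threshold 0.05), with all 10 tumors in 1 fit and ASO2 minus scASO as the contrast. SE is the absolute log2 fold change over the square root of F. CPM was computed with TMM-scaled totals, and log2 CPM with a prior count of 2. DESeq2 1.42.0 and limma 3.58.1 were alternatives, as were other scaling, no filter, the 2 groups alone, a replicate block and each tumor left out. The script was tested on simulated data.

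Genes named are Malat1, Neat1, the 12 with the smallest p per direction at a mean log2 CPM of at least 1 with and without ASO2 tumor 1, and, per list, its most abundant member and up to 4 others, taken by smallest p. The 38 lists hold 710 entries, of which 707 matched. Members and lists were chosen with earlier results of these data known. Some genes that this rule picks are not reported here. Of 102 named genes, 26 share exon bases with another gene, whose reads may not be told apart. Deviations from group means showed no clear pairing by tumor replicate number. With 3 or 4 tumors per group, this cannot exclude a shared mouse or batch. Counts of same-group tumors differed beyond sampling noise. No sequence of the oligonucleotides was used here.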

Additional observations from a re-analysis of the deposited data

Results flagged for a closer look

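The values below lay far from the other 3 ASO2 tumors, by a gap to the nearest tumor over the group's range above Dixon's limit for 4 samples. Chance puts about 1 group in 20 past that limit, and 8.17% of the 17354 genes tested were past it: 723 with ASO2 tumor 1 farthest, 287 with tumor 2, 112 with tumor 3 and 295 with tumor 4.

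ASO2 tumor 1 stood out for skeletal muscle: Mylpf was at 327 CPM, Myoz1 at 50.6 CPM, Tnni2 at 351 CPM, Myh4 at 551 CPM and Ttn at 157 CPM, and the fast muscle list summed to 3605 CPM. The same tumor stood out for the stromal and immune genes Lum at 158 CPM, Lyve1 at 9.98 CPM, Mrc1 at 61.2 CPM and Mcpt4 at 6.15 CPM, and for a summed level of B and plasma cell genes of 19.0 CPM, against 4.12, 7.24 and 3.92 CPM in the scASO tumors. Ulk3 at 66.9 CPM and Tra2a at 366 CPM were also farthest in that tumor. Tie1 was farthest in ASO2 tumor 3, at 6.4 CPM. In ASO2 tumor 4, the shallowest library, Rrm2 was at 195 CPM.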

How the results depend on the processing

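The count of 0 genes between ASO2 and scASO tumors in edgeR was also 0 with DESeq2 size factors, without the filter, with the 2 groups alone and in limma voom, whereas DESeq2 called 45. With the replicate block the count was 0 for both ASO2 comparisons, although the labels do not say that the numbers pair the tumors. Of 9 same-numbered pairs, 2 deviated together with a correlation over 0.1, which so few tumors per group cannot settle. Leaving out each tumor in turn gave 0 to 1 genes for ASO2 against scASO, where Plin1 was called without ASO2 tumor 2, and 0 to 1 against ASO1, where 1 gene was called without ASO2 tumor 4. Against ASO1, DESeq2 called 149 genes and the fit without the filter 4. Alternatives chosen after seeing the data were 4 fits without ASO2 tumor 1, of which DESeq2 called 15 genes against scASO and 72 against ASO1 and the other 3 called 0, and all those of the count of groups that do not overlap. That count was 1057 to 1494 for higher and 861 to 1617 for lower genes with 1 tumor left out; fewer tumors are compared there. The Malat1 log2 difference ran from -1.52 to -0.92 with 1 tumor left out, and its exact p from 0.0667 to 0.2. Among genes named, 3 changed sign, all with estimates within 1 SE of 0 with all tumors or resting on ASO2 tumor 1: Pnpla2 was at -0.04 with the replicate block and -0.05 to 0.17 with 1 tumor left out, Kit at -0.33 to 0.17 with 1 tumor left out (0.07 without ASO2 tumor 2), and Myh4 at -0.70 in limma voom without ASO2 tumor 1. The cause was not tested. Depth limits ASO2 tumor 4 most, with 9939520 reads in genes.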
